A study of Mus musculus with 18 samples.

Results

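Vascular endothelial growth factors and angiopoietins are the secreted factors that form, maintain and stabilise blood and lymphatic vessels. The 10 genes described here were chosen by name as their core ligands and receptors, out of 29213 genes in the bulk RNA-seq table and 26345 genes common to the droplet-based tables. The ligands were Vegfa, Vegfb and Vegfc and the Tie2 agonist Angpt1. The receptors were Flt1 (VEGF receptor 1), Kdr (VEGF receptor 2) and Flt4 (VEGF receptor 3), the co-receptor Nrp1, the angiopoietin receptor Tek (Tie2) and its partner Tie1. No gene of the 10 served to sort cells into classes. All 10 genes had a row in the bulk table and in each droplet table.

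As background, VEGF-A binds Flt1 and Kdr and is the main signal for growth and survival of blood vessel endothelium, and VEGF-B binds Flt1. VEGF-C binds Flt4, the receptor by which lymphatic endothelium is known, and neuropilin-1 strengthens signalling by binding both VEGFs and VEGF receptors. Angiopoietin-1, made by cells around the vessel wall, activates Tek on endothelium, while Tie1 has no well-established ligand of its own and modulates Tek. In the bladder these signals reach a capillary net under the urothelium (the lining epithelium), the vessels of the connective tissue and those of the detrusor, the muscle wall.

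The samples came from bladders of C57BL/6 mice and comprised 18 samples in 11 groups. Whole bladders were dissociated into single cells in 5 libraries, of which those from mice of 22 and 3 months are labelled 3X male, while a pair of 12-month libraries and a 24-month library are each labelled with 2 females and 2 males. A library of single nuclei was made from 12-month bladders of 2 females and 2 males, a library of detrusor only from 14-month females labelled 3X, and a detrusor-enriched library from 2 females and 2 males of 14 months. Bulk RNA was sequenced from 3 samples of intact tissue and 3 samples of dissociated cells of 12-month females, and 4 Visium sections, slides whose spots each catch RNA from several cells, were taken from 22-month and 14-month males. No treatment or engineered allele is named for any group, and each library appears to hold a pool of mice, so that the number of libraries, not of mice, is the n below.

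Bulk samples held 23083585 to 68760253 counted reads. After filtering, the dissociated-cell libraries kept 948 to 8420 cells with medians of 1823 to 15752 unique molecular identifiers (UMIs, counted RNA molecules) per cell, the nuclei library kept 3375 nuclei with a median of 1125, and the sections kept 937 to 1317 spots with medians of 14003 to 17222. The 2 male libraries were much shallower than the 3 mixed-sex whole-bladder libraries. They also differed from them in gene list, barcode length and mix of cell classes, so sex, depth and these features cannot be told apart. Any pair of libraries shared at most 64 cell barcodes. Cells were clustered without the 10 genes and without the other pathway genes examined here, and classes were named "-like" from marker lists that hold none of them. Nothing states whether replicates came from separate animals, and the p-values therefore measure the spread between these samples, which may be technical.

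3 of the promoters are shown as examples of genes that peaked in endothelium: Tie1, high in both endothelial classes, Flt4, high in the lymphatic class, and Vegfc, the ligand that peaked in the blood class. Each is the 250 bases upstream of the gene's start in RefSeq (build GRCm38.p6), 5′ to 3′ on the gene's strand. Capitals mark GGAA or its reverse complement TTCC, the core that ETS-family factors of endothelium bind.
Tie1, chr4:118489850-118490099, minus strand: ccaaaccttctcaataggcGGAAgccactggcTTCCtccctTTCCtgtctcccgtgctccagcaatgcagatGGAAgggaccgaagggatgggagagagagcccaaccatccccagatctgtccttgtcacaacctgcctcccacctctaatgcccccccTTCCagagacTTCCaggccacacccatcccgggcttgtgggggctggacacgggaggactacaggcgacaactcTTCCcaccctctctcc
Flt4, chr11:49609429-49609678, plus strand: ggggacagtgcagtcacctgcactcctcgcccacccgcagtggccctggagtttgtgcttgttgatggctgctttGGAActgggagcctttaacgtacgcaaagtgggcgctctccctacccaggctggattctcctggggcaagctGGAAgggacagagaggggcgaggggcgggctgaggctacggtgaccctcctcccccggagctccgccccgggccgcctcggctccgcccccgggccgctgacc
Vegfc, chr8:54077282-54077531, plus strand: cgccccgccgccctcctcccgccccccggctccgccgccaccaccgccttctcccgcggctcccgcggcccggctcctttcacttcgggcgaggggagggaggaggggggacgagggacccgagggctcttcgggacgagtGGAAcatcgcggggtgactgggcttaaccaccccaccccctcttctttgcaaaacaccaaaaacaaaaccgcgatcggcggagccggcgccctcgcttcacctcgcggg

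The Tie1 window held 7 GGAA matches, the Flt4 window 2 and the Vegfc window 1, counted on both strands. Across 32851 mouse promoters of the same length the median was 3 matches, 93.45% held at least 1, and 8.694% held 6 or more, so only the Tie1 count and the 6 matches upstream of Vegfa lie in that upper range. The other windows held 4 matches for Kdr, 4 for Flt1, 4 for Nrp1, 2 for Tek and 1 for Vegfb. A hypoxia-response core, ACGTG on either strand, was absent from these windows except for 1 match in a second, internal Vegfa entry, which held 2 GGAA matches, against 16.57% of all promoters with a match. Of the 10 genes, 9 had a promoter entry. The Kdr, Flt1, Nrp1, Tek and second Vegfa windows lie upstream of a start inside the gene and overlap the gene coordinates given next, while the other windows end where those coordinates begin. A match describes letters in a window and not a bound site.

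In GRCm38 coordinates Vegfa lies on chromosome 17 from 46016993 to 46032377, Vegfb on chromosome 19 from 6982472 to 6987651 and Vegfc on chromosome 8 from 54077532 to 54186454. Kdr and Flt1 are both on chromosome 5, at 75932827 to 75979072 and 147561604 to 147726438. Flt4 is on chromosome 11 from 49609679 to 49652739 and Nrp1 on chromosome 8 from 128358591 to 128505476. Angpt1 spans 42424667 to 42676977 of chromosome 15, and Tek and Tie1 lie on chromosome 4 at 94739086 to 94874976 and 118471191 to 118489849.

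The first question was which cells carry the ligands and which the receptors. Levels are CPM, the UMIs of a gene in a class summed within a library and scaled to 1000000 UMIs per sum, given over dissociated-cell libraries with at least 20 cells of that class. UMI counts at a transcript end were not divided by gene length. The ligands Vegfa and Vegfb were spread over stroma, muscle and epithelium with overlapping levels, and Vegfb was as high in lymphatic endothelial-like cells. Vegfc and all receptors of the VEGF family peaked in endothelium-like cells.

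Vegfa, the main angiogenic ligand, was highest on average in fibroblast-like cells at 26.0 ± 16.9 CPM (SD, n = 7 libraries), followed by urothelial-like cells at 23.4 ± 14.8 (n = 6) and smooth muscle-like cells at 18.8 ± 20.01 (n = 3). In fibroblast-like cells it ran from 8.06 through a median of 22.2 to 56.0 CPM, and in urothelial-like cells from 15.4 through 17.8 to 53.3. The ranges overlapped, and within libraries that held both classes fibroblast-like cells were the higher in 4 of 6. Blood endothelial-like cells had no Vegfa UMI in the 4 whole-bladder libraries where the class was large enough, and 13.02 CPM in the detrusor-only and 8.58 in the detrusor-enriched library. These libraries differ in depth as well, with class medians of 1074 to 6466 UMIs per cell.

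Vegfb, which binds Flt1 and is linked to metabolic and survival signalling, was present in most classes. Smooth muscle-like cells had 56.7 CPM in the 24-month, 115.5 in the detrusor-only and 52.7 in the detrusor-enriched library. Urothelial-like cells ran from 52.4 through 57.6 to 97.8 CPM (67.5 ± 19.0, SD, n = 6) and fibroblast-like cells from 31.0 through 47.2 to 65.7 (47.8 ± 11.3, n = 7). Between these 2 classes in mean level came lymphatic endothelial-like cells at 60.04 CPM (n = 4) and pericyte-like cells at 51.1 (n = 4). Neighbouring classes overlapped at each step of this order. Smooth muscle-like cells had the highest mean, 75.0 CPM (n = 3), but exceeded urothelial-like cells in 0 of the 2 libraries that held both classes. The detrusor-only library, with the 115.5 CPM, had no urothelial-like class.

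Vegfc, the lymphatic growth factor, peaked in blood endothelial-like cells, at 110.5 and 25.1 CPM in the 22-month and 3-month male libraries, 43.7 in the first 12-month, 119.9 in the 24-month, 65.7 in the detrusor-only and 68.2 in the detrusor-enriched library. The next class, smooth muscle-like, had a mean of 11.1 ± 9.7 (SD, n = 3) and fibroblast-like cells 10.4 ± 4.75 (n = 7), with no overlap between blood endothelial-like and smooth muscle-like levels. Lymphatic endothelial-like cells, where its receptor was highest, held 2 Vegfc UMIs in 4 libraries.

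**Figure D1:**
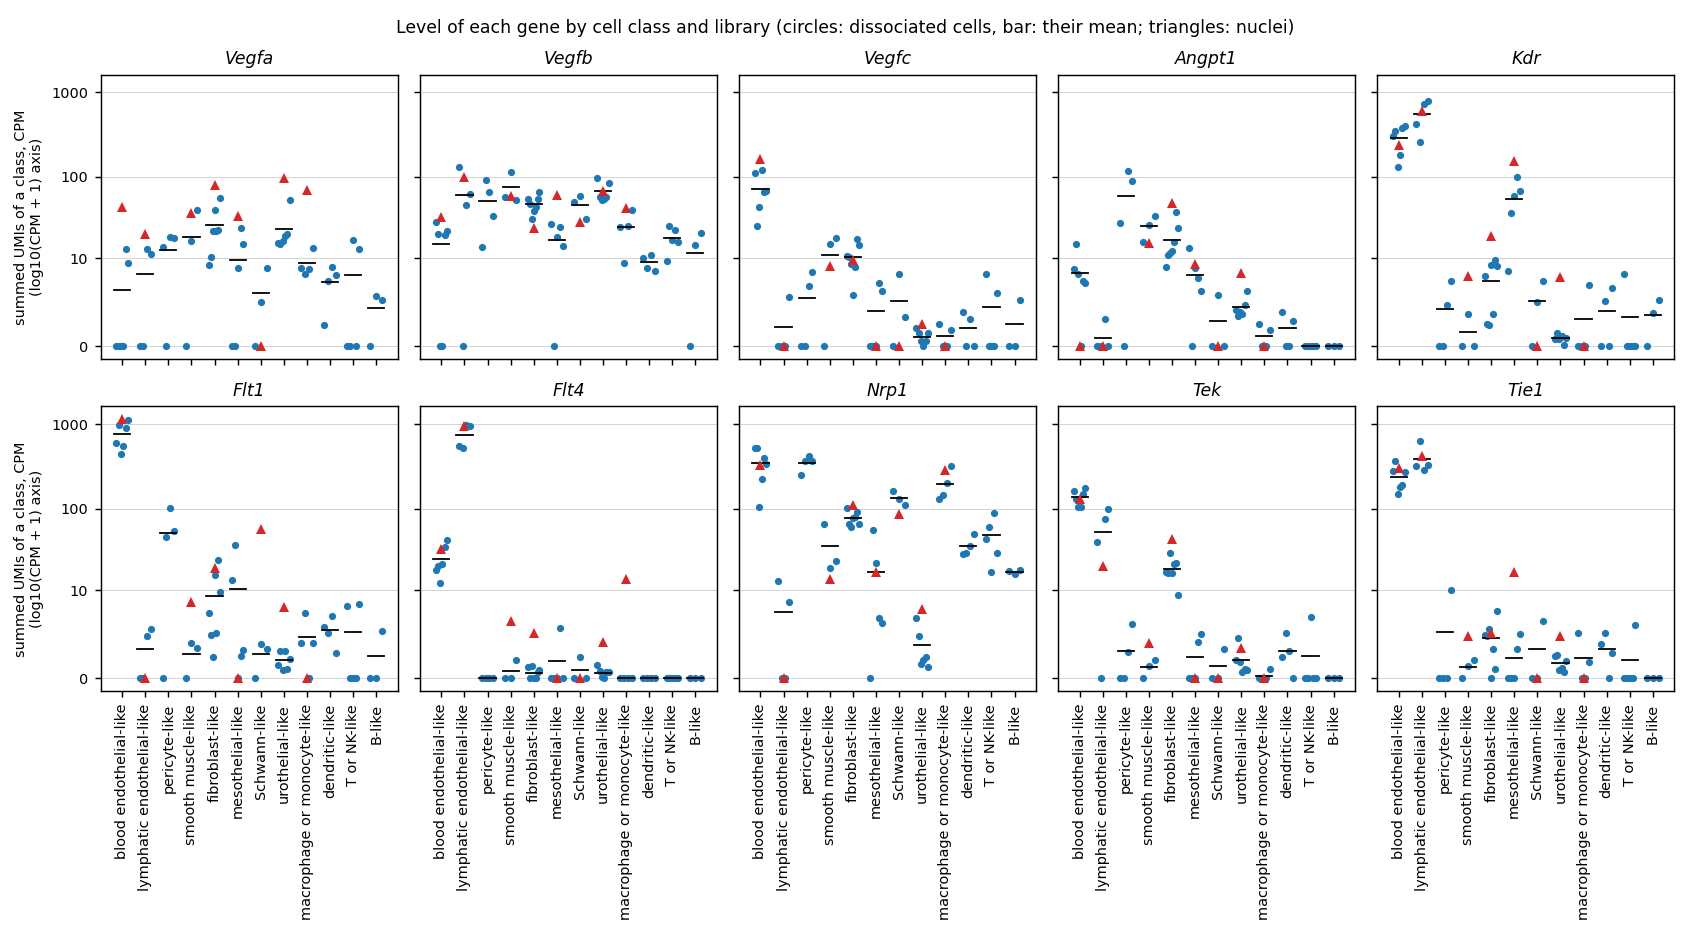
Level of each of the 10 genes by cell class, in CPM on a log10(CPM + 1) axis. Circles are dissociated-cell libraries with the bar at their mean, triangles are the single nuclei library, and Flt4 stands at 521 to 981 CPM in lymphatic endothelial-like cells against 12.5 to 42.1 in blood endothelial-like cells.

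Kdr, the main signalling VEGF receptor, was present in both endothelial classes. In lymphatic endothelial-like cells it measured 423.8, 260.7, 738.3 and 802.8 CPM in the 22-month, 3-month, detrusor-only and detrusor-enriched libraries, and in blood endothelial-like cells it ran from 131.2 through 327.5 to 406.6. These ranges overlapped. Mesothelial-like cells, the covering of the outer bladder wall, came next at 6.70, 36.9, 59.2, 99.3 and 67.4 CPM (53.9 ± 34.6, SD, n = 5), below all blood endothelial-like values. The summed blood endothelial marker list stood at 189 to 844 CPM in these mesothelial-like cells, highest in the male libraries where Kdr there was lowest. In the 22-month and 3-month male libraries this class held 66 and 28 cells with 149267 and 54250 UMIs in total. Kdr there thus rests on very few UMIs, and its order against the marker list is not read further. The lymphatic list summed to 154.1, 36.9, 147.9, 283.6 and 229.3 CPM in the 22-month, 3-month, 24-month, detrusor-only and detrusor-enriched libraries. It was highest in the detrusor-only and detrusor-enriched libraries, where Kdr there was also highest. Of the 7 genes of the lymphatic list, 1 was detected in each of the 22-month, 3-month and 24-month libraries. In the detrusor-only library 7 were detected and in the detrusor-enriched library 3. Whether endothelial RNA contributes to mesothelial Kdr was not tested.

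Flt1, a high-affinity VEGF-A receptor often described as a decoy, was found mainly in blood endothelial-like cells. It measured 595.4, 990.3, 443.5, 557.1, 906.9 and 1133 CPM there in the 22-month, 3-month, first 12-month, 24-month, detrusor-only and detrusor-enriched libraries. Pericyte-like cells followed with 0, 45.8, 102.8 and 53.4 CPM in 4 libraries, without overlap, while the blood endothelial marker list in those pericyte-like cells summed to 281 to 917 CPM. The 45.8 came from the 3-month library, where this class had 21 cells and 21820 UMIs in total. That value rests on very few UMIs. The part of endothelial RNA in pericyte Flt1 was not tested.

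Flt4 separated the endothelial classes. Lymphatic endothelial-like cells had 556.2, 521.5, 980.7 and 966.7 CPM in the 22-month, 3-month, detrusor-only and detrusor-enriched libraries, and blood endothelial-like cells 12.5 to 42.1 (24.7 ± 11.2, SD, n = 6). The groups did not overlap, and the next class with more than 1 UMI, mesothelial-like, was at 0.584 CPM on average. In the detrusor-enriched library a Kdr UMI was seen in 81.9% of lymphatic, 71.8% of blood endothelial-like and 0.763% of urothelial-like cells, at median depths of 6527, 6466 and 24145 UMIs. With every cell thinned to 1000 UMIs these shares were 52.0%, 35.3% and 0.0270%, and 92 of 105, 236 of 273 and 387 of 393 cells were deep enough to enter. The source of the urothelial Kdr UMIs was not tested.

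Nrp1, a co-receptor for VEGFs and semaphorins, was spread over several classes. Blood endothelial-like cells ran from 106.2 through 370.5 to 527.7 CPM (353.9 ± 166.8, SD, n = 6), and pericyte-like cells measured 250.5, 366.6, 420.5 and 370.6. Macrophage or monocyte-like cells had 129.3, 146.1, 201.2 and 320.1 CPM and Schwann-like cells, the glia of nerves, a mean of 134.4 ± 27.7 (n = 3). Fibroblast-like cells stood at 77.3 ± 15.02 (n = 7), below every Schwann-like value, while the classes above overlapped their neighbours.

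In the Tie axis, Angpt1 was led by pericyte-like cells, at 27.8, 0, 116.3 and 90.1 CPM in the 22-month, 3-month, detrusor-only and detrusor-enriched libraries, followed by smooth muscle-like cells at 16.2, 26.1 and 34.0. Fibroblast-like cells ran from 7.71 through 12.4 to 37.9 CPM, and blood endothelial-like cells averaged 6.34 ± 4.94 (SD, n = 6). All neighbours in this order overlapped. The 3-month pericyte-like class had 21 cells and 21820 UMIs in total, too few to tell its 0 from a low level.

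Tek, which receives angiopoietin-1, was highest in blood endothelial-like cells, from 105.8 through 141.0 to 174.3 CPM. Lymphatic endothelial-like cells had 39.7, 0, 74.6 and 98.1 CPM, all below the blood endothelial values. The 0 came from the 3-month library, where this class had 30 cells and 26846 UMIs in total, too few to tell it from a low level. Fibroblast-like cells had Tek in all 7 libraries, from 8.73 through 16.9 to 29.4 CPM, above pericyte-like cells at 1.09 ± 1.57 (n = 4). In fibroblast-like cells the blood endothelial marker list summed to 11.7 to 37.4 CPM and the lymphatic list to 151.5 to 307.5. Flt4, which is not on these lists, averaged 756.3 CPM in lymphatic endothelial-like (n = 4) and 0.169 CPM in fibroblast-like cells (n = 7). The part of endothelial RNA in fibroblast Tek was not tested. Tie1 was at 317.8, 633.2, 290.7 and 333.5 CPM in lymphatic and at 149.9 to 372.0 (241.2 ± 81.5, n = 6) in blood endothelial-like cells, which overlapped, and fibroblast-like cells averaged 1.98 ± 1.76 (n = 7). The class with the highest mean was the same for 9 of the 10 genes with doublets kept. The exception was Vegfb, led then by urothelial-like cells at 67.1 CPM, since only classes held by at least 3 libraries were ranked and the smooth muscle-like class was held by fewer.

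Each class was then tested against fibroblast-like cells with edgeR's quasi-likelihood test on class sums, with library as a block and Benjamini-Hochberg adjustment over 12926 genes. In blood endothelial-like cells all 10 genes were called, 7 higher and 3 lower, against 42.4% of all genes (15.7% higher, 26.8% lower), and their median log2 difference was 2.47 against -0.21 for all genes. Flt4 was higher by 6.73 ± 0.39 on the log2 scale (SE, adjusted p = 4.7e-18), Flt1 by 6.71 ± 0.37 (adjusted p = 7.8e-19), Tie1 by 6.70 ± 0.32 (adjusted p = 1.1e-24) and Kdr by 5.86 ± 0.34 (adjusted p = 5.1e-19). Fibroblast-like cells held 16 Flt4 UMIs in 7 libraries, near the floor, so the size and p-value for Flt4 are not read beyond their direction. Tek rose by 2.68 ± 0.26, Vegfc by 2.26 ± 0.29 and Nrp1 by 1.88 ± 0.32. Angpt1, Vegfa and Vegfb fell by 2.36, 2.15 and 1.82, and the Angpt1 call was lost in whole-bladder libraries alone (-0.74, adjusted p = 0.45). Of all calls, 36.9% were higher with TMM scaling, 55.7% with RLE size factors and 50.2% with library size alone, where the all-gene medians were 0.10 and 0.01. The directions of the 10 genes did not change under these scalings.

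In lymphatic endothelial-like cells 9 of the 10 genes were called, 4 higher and 5 lower, against 30.7% of all genes (10% higher, 20.7% lower), with medians of -1.19 and -0.30. Flt4 was higher by 11.21 ± 0.39 (SE, adjusted p = 9.1e-25), Tie1 by 6.90 ± 0.35 and Kdr by 6.21 ± 0.37, all in edgeR's test. The Flt4 reference, 16 UMIs in fibroblast-like cells of 7 libraries, was near the floor, so its size and p-value are not read beyond their direction. Tek was higher by 1.59 ± 0.34, a call lost without the detrusor-enriched library (0.77, adjusted p = 0.20). Nrp1 fell by 4.92 ± 0.74, the opposite direction to blood endothelial-like cells. Vegfa fell by 1.99 ± 0.49, which did not pass without the detrusor-enriched library (-1.67, adjusted p = 0.064). Flt1 at -2.63 ± 0.93 (adjusted p = 0.028) kept its call in 8 of 15 alternatives, and without the detrusor-only or the detrusor-enriched library it was -1.82 (adjusted p = 0.24) or -3.20 (adjusted p = 0.10). The 2 Vegfc UMIs and 1 Angpt1 UMI of this class put the fibroblast-like level at 12.2 times (counting interval 3.37 to 100.7) and 42.6 times (7.63 to 1683) its own. Here and in the ratios below, the fibroblast-like level pools all 7 dissociated-cell libraries, also where the other class was found in fewer. Higher calls made up 32.6% of all calls with TMM, 50.4% with RLE and 54% with library size alone.

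Pericyte-like cells, which wrap capillaries, had 5 genes called, 3 higher and 2 lower, against 21.4% of all genes (8.12% higher, 13.3% lower; medians -0.88 and -0.22). Flt1 was higher by 2.31 ± 0.44 (SE), Nrp1 by 1.75 ± 0.37 and Angpt1 by 1.59 ± 0.32 (adjusted p = 8.0e-05, 0.00028 and 0.00011, edgeR). Vegfc fell by 1.94 ± 0.56, a call lost without the detrusor-only library (-1.77, adjusted p = 0.098) and with DESeq2 (adjusted p = 0.053). Vegfa (-1.05 ± 0.44, adjusted p = 0.084), Vegfb (-0.71 ± 0.31, adjusted p = 0.10) and Kdr (-1.52 ± 0.84, adjusted p = 0.22) did not pass. Vegfa did pass, lower, without the 22-month library (-1.34, adjusted p = 0.031) and Kdr at the finer clustering (-2.22, adjusted p = 0.037). Vegfb passed at 50 cells (-0.78, adjusted p = 0.048) and without the first 12-month (-0.87, adjusted p = 0.043), the second 12-month (-0.85, adjusted p = 0.048) or the detrusor-only library (-1.18, adjusted p = 0.042). The 3 Tek UMIs of this class put fibroblast-like Tek at 10.2 times its level (counting interval 3.47 to 49.4). Higher calls were 37.9% of all calls with TMM, 52.3% with RLE and 53.6% with library size alone.

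Smooth muscle-like cells had 4 genes called, all lower, against 29.8% of all genes (12% higher, 17.7% lower; medians -1.26 and -0.19). Kdr fell by 2.93 ± 0.73 (SE, adjusted p = 0.0015) and Flt1 by 3.07 ± 0.75 (adjusted p = 0.0013), and Nrp1 fell by 1.81 ± 0.50 (adjusted p = 0.0042). Without the detrusor-only library 2 genes were called, and Flt1 (-2.58, adjusted p = 0.064) and Nrp1 (-1.23, adjusted p = 0.14) were not. Flt1 was also lost with DESeq2 (-2.41, adjusted p = 0.052) and at the finer clustering (-1.88, adjusted p = 0.050). The 3 Tek UMIs put the fibroblast-like level at 37.7 times (12.9 to 182.9).

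In macrophage or monocyte-like cells Nrp1 was the 1 gene higher, by 1.54 ± 0.35 (SE, adjusted p = 0.00028, edgeR), and 5 were lower, against 45.9% of all genes (20.6% higher, 25.3% lower; medians -1.46 and -0.12). Vegfb fell by 0.75 ± 0.28 (adjusted p = 0.026), a call lost without the 3-month (-0.53), detrusor-only (-0.82) or detrusor-enriched library (-0.69) and in 3 further alternatives. The Flt1 difference of -1.86 ± 0.74 (adjusted p = 0.037) turned to 0.05 without the detrusor-only library and to 0.09 in whole-bladder libraries alone, and was -1.88 (adjusted p = 0.068) without the 24-month and -1.92 (adjusted p = 0.071) without the detrusor-enriched library. It also did not pass with doublets kept (-0.71, adjusted p = 0.47), with DESeq2 (-1.28, adjusted p = 0.24), at 1000 UMIs (-1.67, adjusted p = 0.099), at 50 cells (-2.00, adjusted p = 0.059) or without the filter (-1.87, adjusted p = 0.057). Vegfa, at -0.68 ± 0.40 (adjusted p = 0.16), did not pass, but did at the finer clustering (-1.30, adjusted p = 0.0030), without the 22-month library (-1.07, adjusted p = 0.048) and with library size alone (-1.08, adjusted p = 0.021). Vegfc, Angpt1 and Tek rested on 3, 3 and 1 UMIs in this class, with fibroblast-like levels 27.9 times (9.52 to 135.5), 48.8 times (16.7 to 236.6) and 100.6 times (18.0 to 3977) as high. Higher calls were 44.8% of all calls with TMM and 26.5% with library size alone, where the all-gene median was -0.54.

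Urothelial-like cells had 8 genes called, 1 higher and 7 lower, against 61% of all genes (29.4% higher, 31.7% lower), with medians of -2.83 and 0.00. Vegfb was higher by 0.87 ± 0.20 (SE, adjusted p = 0.00015). Vegfa differed by 0.35 ± 0.24 (adjusted p = 0.20) and Flt4 by 0.41 ± 0.68 (adjusted p = 0.62), and neither passed. The sign for Vegfa is opposite to its CPM levels, whose mean was 26.0 in fibroblast-like and 23.4 in urothelial-like cells. Fibroblast-like cells were the higher in 4 of 6 libraries, so no direction is read for Vegfa. With doublets kept Flt4 did pass, at 1.98 (adjusted p = 0.0022). Flt4 was near the floor in both classes in the main setting, at means of 0.172 CPM in urothelial-like and 0.169 in fibroblast-like cells. Nrp1 fell by 5.79 ± 0.40, Vegfc by 4.91 ± 0.37 and Tek by 4.83 ± 0.33, and Kdr, Flt1, Angpt1 and Tie1 fell by 3.72, 3.10, 2.56 and 1.77. Higher calls were 48.1% of all calls with TMM and 35.3% with library size alone.

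Other genes of these pathways were counted from fixed lists, of which each comparison tested 12 further ligands and receptors and 11 genes known to act downstream. Over all genes, 15.7% were called higher and 26.8% lower in blood endothelial-like cells, and 10% and 20.7% in lymphatic endothelial-like cells. Receptor activity was not measured. Of the 12, blood endothelial-like cells had 5 higher and 7 lower, including Plxnd1, a semaphorin receptor (6.45 ± 0.29), and Sema3d (-7.32 ± 0.77). Lymphatic endothelial-like cells had 8 higher and 4 lower, including Sema3a (4.10 ± 0.42). Angpt2, the Tek ligand that opposes angiopoietin-1 in many settings, was higher in pericyte-like (4.37 ± 0.57) and smooth muscle-like cells (3.97 ± 0.59). Of the 11 downstream genes, 8 were higher and none lower in blood endothelial-like cells, led by Dll4, a Notch ligand of sprouting vessels (8.47 ± 0.33), Esm1 (8.12 ± 0.50) and the endothelial nitric oxide synthase Nos3 (6.38 ± 0.34). Lymphatic endothelial-like cells had 6 higher, including Dll4 (7.50 ± 0.38) and Nos3 (5.27 ± 0.41), and none lower. Of the 14 hypoxia-response genes, 7 were higher and 3 lower in blood endothelial-like cells, with Epas1, which encodes HIF-2 alpha, at 4.85 ± 0.22.

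Likeness of pattern was described over 56 library-by-class sums and 9238 genes with a mean of at least 10 CPM. These sums share libraries, depth and class composition, and genes are not independent replicates. The most similar genes by Pearson's r were Btnl9 for Flt4 (0.966), the Notch ligand Dll4 for Tie1 (0.954), Podxl for Kdr (0.919), Pde3a for Angpt1 (0.882), Bcl6b for Tek (0.845), Tmem252 for Flt1 (0.844), the chemokine scavenger Ackr1 for Vegfc (0.775), Psd3 for Vegfa (0.768), Fahd1 for Vegfb (0.760) and Lrrc8c for Nrp1 (0.720). Nrp1, Vegfb, Vegfa and Vegfc had the lowest top correlations of the 10. The next ranks were Tbx1 and Wscd1 for Flt4, Sox18 and Gpr182 for Tie1, and Sox17 and C1qtnf9 for Flt1.

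The nuclei library held 1381 smooth muscle-, 1235 urothelial-, 384 fibroblast- and 98 blood endothelial-like nuclei. Smaller classes were mesothelial- (100), macrophage or monocyte- (70), lymphatic endothelial- (42) and Schwann-like (32) nuclei. There was no pericyte-like class, so the class that led Angpt1 was not measured in nuclei. Levels in smooth muscle-like nuclei, the largest class, are shown in the figure of levels by cell class and not printed here. In urothelial-like nuclei Vegfa stood at 97.5 CPM, above the 15.4 to 20.2 of the 5 whole-bladder cell libraries and the 53.3 of the detrusor-enriched library. In fibroblast-like nuclei it stood at 79.1 CPM, above 8.06 to 40.3 in whole-bladder cells, 22.7 in the detrusor-only and 56.0 in the detrusor-enriched library. Blood endothelial-like nuclei had 43.7 CPM of Vegfa from 4 UMIs, where whole-bladder cells had no UMI and the detrusor-only and detrusor-enriched libraries 13.02 and 8.58 CPM. Flt1 in blood endothelial-like nuclei was 1146 CPM, Kdr 240.2, Vegfc 163.8, Tie1 305.7 and Tek 131.0, with Vegfc and Flt1 above every whole-bladder value and the other 3 inside their range. These nuclei held 91600 UMIs in total, and this order leaves out counting error. Against mixed-sex cell libraries only, the log2 difference of Flt1 in this class was 0.90. Kdr in mesothelial-like nuclei was 153.8 CPM, from a class of 117067 UMIs in total. With counting error left out, this lay above every dissociated-cell library. In the mesothelial-like nuclei the blood endothelial list was at 205.0 and the lymphatic list at 162.3 CPM, and their part was not tested.

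The nuclei are 1 library with no replicate, so the following log2 differences set that library against the cell libraries. The edgeR fit takes the unmeasured spread between nuclei libraries to be that between cell libraries, so its p-values are not printed, and passing its threshold is not read as a difference between nuclei and cells. With TMM scaling 1 of 8 tested genes passed in the urothelial-like class, Kdr at 3.36, against 35.2% of all genes, while Vegfa was 1.20 and Vegfb -1.13. Which genes passed changed with the setting. Kdr did not pass without the first 12-month library (3.40), with cells of at least 1000 UMIs (2.82) or with doublets kept (3.55). Vegfb passed with RLE (-1.12), without the filter on low counts (-1.17), with DESeq2 (-1.12), without the 3-month library (-1.25), against mixed-sex cell libraries only (-1.21) and against the 12-month libraries only (-1.17). Vegfa passed with doublets kept (1.35), against mixed-sex cell libraries only (0.90) and against the 12-month libraries only (0.97). Nrp1 passed against mixed-sex cell libraries only (1.63), and Flt1 passed at the finer clustering (3.09) and without the second 12-month library (2.58). With library size alone, an alternative added after the data were seen, the median of all genes moved from -0.04 to 1.12, higher genes went from 45.5% to 89.5% of those past the threshold, and 4 genes passed: Vegfa at 2.45, Kdr at 4.59, Flt1 at 3.25 and Angpt1 at 1.92. Vegfb changed sign without passing (0.04).

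In fibroblast-like nuclei 1 of 8 tested genes passed, Vegfb at -1.72, against 23.4% of all genes, and it did not pass with DESeq2 (-1.52), without the 24-month library (-1.67) or against 12-month cells only (-1.35). Vegfb there was 24.0 CPM in nuclei and 31.0 to 53.9 in whole-bladder cells. Library size alone moved the all-gene median from -0.33 to 0.52 and higher genes from 34.9% to 84.5% of those past the threshold, with 46.9% under RLE, and the 1 gene past it became Angpt1 at 2.02, with Vegfb at -0.86. In blood endothelial-like nuclei none of 6 tested genes passed by edgeR or DESeq2, and none had an unadjusted p under 0.05, against 6.22% of all genes past the threshold and 1548 genes at unadjusted p under 0.05. Higher genes there were 53.8% of those past it with TMM, 67.6% with RLE and 80.5% with library size alone. Genes of the dissociation response, an immediate-early programme that tissue digestion switches on, were lower in nuclei, with median log2 differences of -5.11 in urothelial-like, -5.79 in fibroblast-like and -5.72 in blood endothelial-like classes against -0.04, -0.33 and -0.28 for all genes, and their part in the differences was not tested.

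**Figure D2:**
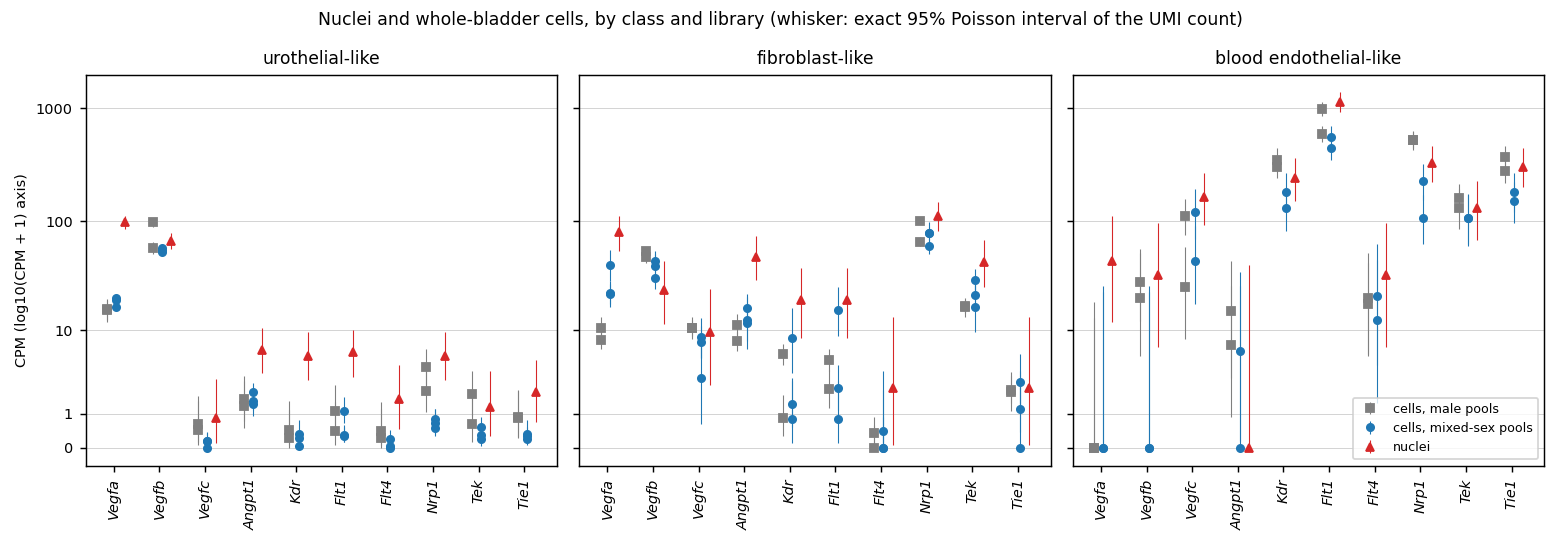
Levels of the 10 genes in CPM in 3 classes, with squares for male and circles for mixed-sex whole-bladder cell libraries, red triangles for nuclei and whiskers for exact 95% Poisson intervals, which cover counting error only. Vegfa in urothelial-like nuclei (97.5 CPM from 229 UMIs) lies above the 5 whole-bladder cell libraries plotted.

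The male and mixed-sex libraries were compared within the urothelial-to-fibroblast difference, a test added after the data were seen. Urothelial minus fibroblast Vegfa was 7.74 and 4.91 CPM in the male libraries of 22 and 3 months, and -5.56, -21.3 and -1.83 CPM in the mixed-sex libraries. The signs separated the 2 kinds of library, but the interaction of 0.83 ± 0.31 on the log2 scale (SE, adjusted p = 0.13) did not pass. Urothelial Nrp1 was 4.21 and 2.20 CPM in the male and 0.483, 0.658 and 0.780 in the mixed-sex libraries, from 10 to 21 UMIs each, with fibroblast-like Nrp1 at 60.04 to 100.8 in all 5. Its interaction did pass, at 1.68 ± 0.34 (adjusted p = 0.0095), the 1 of 9 tested genes called against 6.21% of all genes, and Tek was at 1.85 (adjusted p = 0.092). Higher calls were 69.5% of all calls with TMM and 88.1% with RLE. Fibroblast-like cells were 4968 of 8420 and 3591 of 6053 kept cells in the male libraries of 22 and 3 months. In the mixed-sex libraries they were 417 of 2799, 147 of 948 and 741 of 2954. Sex, depth, gene list, barcode length and this mix of cell classes cannot be told apart here.

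Age was tested within classes of whole-bladder cells, 22 and 24 months against 3 and 12 months with sex of the pool as a term. No gene of the 10 was called by edgeR or DESeq2: 0 of 6 tested in urothelial-like cells (0% of all genes called, 355 genes at unadjusted p under 0.05, 3 genes by DESeq2), 0 of 8 in fibroblast-like cells (0%, 244 genes, none by DESeq2) and 0 of 6 in blood endothelial-like cells (0.125%, 208 genes, none by DESeq2). The 1 gene of the 10 at an unadjusted p under 0.05 was Vegfc in blood endothelial-like cells. Its levels of 110.5 and 119.9 CPM at 22 and 24 months lay above 25.1 and 43.7 at 3 and 12 months, a log2 difference of 1.78 ± 0.56 (SE, adjusted p = 0.17, edgeR). These levels come from 176 and 23 cells at 22 and 24 months and from 164 and 23 cells at 3 and 12 months. Leaving out any library leaves this fit no residual degrees of freedom.

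Bulk RNA asked what dissociation does to these genes. All 10 differed between intact tissue and dissociated cells, 9 of them higher after dissociation and Vegfb lower, with no overlap between groups, where 59.2% of all genes were called and 67.4% had groups that did not overlap. The values below are CPM, reads scaled to 1000000 per library with TMM factors, not divided by gene length, so genes are not compared with each other. In bulk samples fewer cells of a type and less RNA per cell cannot be told apart.

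Vegfa measured 93.7, 87.2 and 89.9 CPM in intact samples 1 to 3 and 222.4, 194.9 and 259.9 in dissociated samples 1 to 3. Vegfb went the other way, at 53.9, 48.9 and 49.9 intact and 29.4, 24.3 and 29.8 dissociated. Vegfc was at 9.04, 10.6 and 8.74 intact and 14.4, 14.3 and 14.9 dissociated. Thus the 3 VEGF ligands did not move together, although each separated the groups completely. In edgeR's quasi-likelihood test Vegfa rose by 1.34 ± 0.11 on the log2 scale (SE, adjusted p = 5.8e-05), Vegfb fell by 0.85 ± 0.10 (adjusted p = 0.00026) and Vegfc rose by 0.63 ± 0.11 (adjusted p = 0.0019).

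The VEGF receptors all rose. Kdr was at 49.0, 51.0 and 47.8 CPM intact and 72.3, 73.7 and 67.4 dissociated (0.55 ± 0.07, SE, adjusted p = 0.00037). Flt1 was at 56.0, 53.0 and 52.5 intact and 87.6, 85.7 and 124.6 dissociated (0.91 ± 0.15, adjusted p = 0.0013). Flt4 was at 26.6, 19.3 and 23.9 intact and 34.1, 32.5 and 34.6 dissociated (0.56 ± 0.13, adjusted p = 0.0060). No dissociated value lay below an intact one for any of these receptors. The co-receptor Nrp1 was at 76.5, 80.5 and 78.8 intact and 155.6, 150.8 and 133.2 dissociated (0.92 ± 0.08, adjusted p = 7.0e-05).

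In the Tie axis, the ligand Angpt1 was at 13.7, 13.4 and 12.7 CPM intact and 21.0, 20.4 and 21.1 dissociated (0.67 ± 0.09, SE, adjusted p = 0.00040). Tek was at 34.7, 32.7 and 32.6 intact and 86.5, 66.0 and 73.1 dissociated (1.20 ± 0.11, adjusted p = 7.2e-05). Tie1 was at 53.5, 43.8 and 47.4 intact and 83.0, 73.6 and 95.5 dissociated (0.82 ± 0.12, adjusted p = 0.00078). Ligand and both receptors were thus higher in every dissociated sample.

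**Figure D3:**
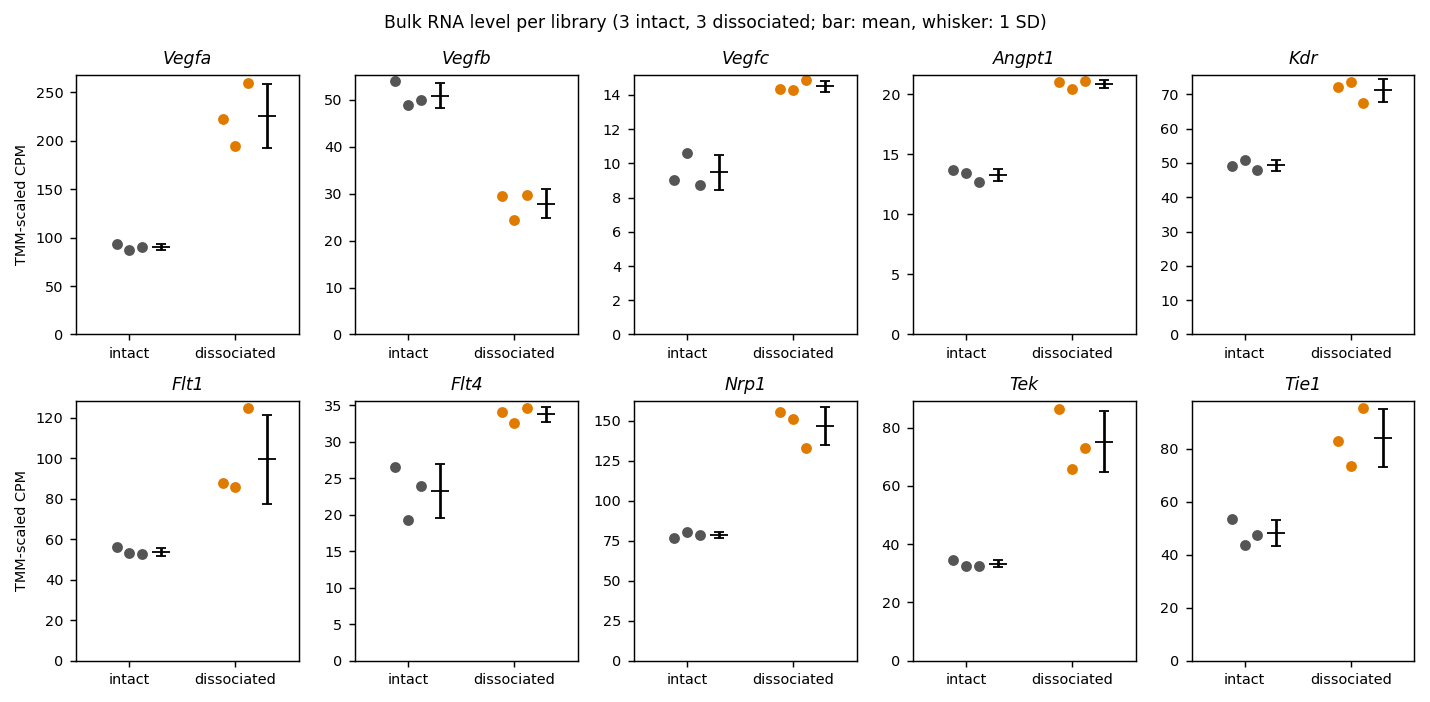
Bulk level of each gene in TMM-scaled CPM for the 3 intact and the 3 dissociated samples, with mean and SD. Vegfb is the gene whose dissociated samples (24.3 to 29.8) lie below the intact ones (48.9 to 53.9).

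Of all 16537 genes tested, 27.9% were called higher and 31.3% lower. The median log2 difference was 0.75 for the 10 genes and -0.03 for all genes. With library size alone the all-gene median was -0.14 and the 9 genes that rose did so by 0.44 to 1.23, with Vegfb at -0.96. Marker lists of several cell types moved with them: summed blood endothelial markers stood at 324 to 386 CPM intact and 553 to 702 dissociated, lymphatic markers at 132 to 158 and 349 to 374, and fibroblast markers at 12198 to 14925 and 23633 to 34948. Of the markers tested, 7 of 10 blood endothelial, 6 of 6 lymphatic and 10 of 10 fibroblast genes were higher. Smooth muscle markers fell from 28913 to 30853 CPM intact to 1422 to 2358 dissociated, with 10 of 10 lower, and pericyte markers summed to 838 to 898 CPM intact and 596 to 706 dissociated, with 3 of 10 genes higher, 4 lower and 3 not called (median -0.19). Adipocyte markers fell from 13.4 to 76.1 to 0.71 to 2.77 CPM. The part of this composition in the changes of the 10 genes was not tested.

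Dissociation-response genes rose together, while hypoxia-response genes moved both ways. All 18 dissociation-response genes rose, among them Il6 by 11.99 ± 0.17 and Fosb by 9.47 ± 0.74 on the log2 scale (SE), and their sum was 455 to 624 CPM intact and 18751 to 23995 dissociated. Of 14 hypoxia-response genes, 7 rose, 4 fell and 3 were not called (median 0.46), where 27.9% of all genes were higher and 31.3% lower. The largest changes were rises, including the glycolytic regulator Pfkfb3 (2.10 ± 0.13), the glucose transporter Slc2a1 (1.97 ± 0.19) and Hif1a (1.81 ± 0.18). Of 12 genes downstream of the receptors, 8 rose and 2 fell (median 1.89), led by the immediate-early factor Egr3 (5.42 ± 0.19), Klf4 (4.14 ± 0.17) and the calcineurin regulator Rcan1 (2.80 ± 0.08). Of 13 other ligands and receptors, 8 rose and 3 fell (median 0.81), among them Sema3d (1.77 ± 0.09), placental growth factor Pgf (1.63 ± 0.30), the Tek phosphatase Ptprb (1.49 ± 0.13) and Sema3a (-1.65 ± 0.10).

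Visium sections placed the genes in tissue. Spots are small regions that can hold several cells, and regions were formed by taking in each section the 20% of spots with the highest share of UMIs in a marker list, giving 187 to 263 high spots per section. Between 63 and 226 spots per section and list lay within 10% of the cut. Values are CPM of summed spots, tested with edgeR with section as a block, and the high and other spots of a section share its library.

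Spots high in blood endothelial markers were higher in 8 of the 10 genes and lower in none, against 43.7% of all genes (22.7% higher, 21% lower; medians 1.13 and -0.01). Tie1 measured 47.7, 59.8, 53.5 and 43.5 CPM in the high spots of the 14-month and then the 22-month sections, and 12.4, 12.5, 13.3 and 12.8 in the others (1.94 ± 0.09, SE, adjusted p = 2.5e-14). Flt4 measured 19.4, 20.4, 13.7 and 9.24 CPM against 5.52, 3.12, 4.56 and 4.42 (1.74 ± 0.21). The high spots lay above the others in all 4 sections for both genes. Flt1 rose by 1.66, Tek by 1.6, Kdr by 1.29, Nrp1 by 0.98, Vegfc by 0.95 and Angpt1 by 0.69, while Vegfa was -0.21 ± 0.09 (adjusted p = 0.061) and Vegfb -0.03. Vegfa passed, lower, without the filter on low counts (-0.24, adjusted p = 0.0046), with a narrower cut (-0.48, adjusted p = 0.025) and without the first (-0.27, adjusted p = 0.036) or the second 22-month section (-0.30, adjusted p = 0.0072). Lymphatic markers summed to 272 to 641 CPM in these spots and 131 to 163 elsewhere, and fibroblast markers to 5902 to 9638 and 3550 to 5408. Pericyte markers were also higher, at 584 to 651 CPM against 422 to 514, and urothelial markers lower, at 6659 to 9474 against 10953 to 13226. The part of these lists was not tested.

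Spots high in fibroblast markers had 7 genes higher and none lower, against 36% of all genes (17.7% higher, 18.3% lower; medians 0.83 and -0.04). Tek measured 24.7, 18.9, 16.7 and 26.3 CPM in these spots against 8.92, 9.46, 7.27 and 8.97 (1.23 ± 0.12, SE, adjusted p = 6.3e-06). Nrp1 rose by 1.22, Flt1 by 1.05, Kdr by 0.97, Tie1 by 0.85, Flt4 by 0.81 and Angpt1 by 0.63, and no ligand of the VEGF family passed. Vegfc, at 0.55 ± 0.22 (adjusted p = 0.065), did pass with a wider cut of the spots (0.64, adjusted p = 0.0073), with a narrower one (0.63, adjusted p = 0.048) and without the first 22-month section (0.82, adjusted p = 0.0062). Blood endothelial markers summed to 474 to 670 CPM in these spots and 241 to 270 elsewhere, so the receptors rose where endothelial markers did, and their part was not tested.

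Spots high in smooth muscle markers had 4 genes higher and 2 lower, against 60.2% of all genes (27.9% higher, 32.4% lower; medians 0.42 and -0.07). Vegfa measured 16.6, 20.5, 28.6 and 25.9 CPM in these spots and 77.6, 49.4, 45.3 and 43.8 elsewhere, lower in all 4 sections (-1.04 ± 0.25, SE, adjusted p = 0.011), a call lost without the filter on low counts (adjusted p = 0.071). Flt4 measured 15.9, 9.26, 14.0 and 8.76 CPM against 6.85, 5.24, 5.06 and 4.77 (1.27 ± 0.18, adjusted p = 2.1e-05). Vegfc rose by 1.09 ± 0.21, Nrp1 by 0.93 ± 0.23 and Vegfb by 0.52 ± 0.09, and Flt1 fell by 0.62 ± 0.15. Lymphatic markers stood at 421 to 620 CPM in these spots and 116 to 186 elsewhere, while blood endothelial markers were at 208 to 244 and 282 to 338. Urothelial markers summed to 1990.5 to 4059.5 CPM in these spots and 11370 to 13907 elsewhere. Angpt1 did not pass, but did with RLE (0.55, adjusted p = 0.044), a wider cut (0.57, adjusted p = 0.016) or without the first 22-month section (0.73, adjusted p = 0.017). The part of these markers in the Flt4, Vegfc and Vegfa differences was not tested.

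Spots high in urothelial markers had 9 genes lower and none higher, against 67% of all genes (32.6% higher, 34.4% lower; medians -1.12 and 0.02). Nrp1 measured 1.11, 1.78, 0.932 and 0.737 CPM in these spots and 5.57, 9.17, 3.21 and 3.72 elsewhere (-2.24 ± 0.22, SE, adjusted p = 4.6e-05), and Flt4 fell by 2.20, Vegfc by 1.74, Angpt1 by 1.19, Kdr by 1.12, Tie1 by 1.11, Tek by 1.03, Flt1 by 0.74 and Vegfb by 0.44. Vegfa was the exception at 0.46 ± 0.21 (adjusted p = 0.081). It passed without either 22-month section (0.64 without the first and 0.65 without the second, both at adjusted p = 0.027) and with a wider cut of the spots (0.70, adjusted p = 0.014). These spots were deeper, with medians of 34000 to 55273 UMIs against 12684 to 15793, and held less of the blood endothelial list, at 139 to 209 CPM against 386 to 408. Lower too were the lymphatic (46.3 to 66.7 against 232.9 to 385.3), fibroblast (2427 to 3153.5 against 5162.9 to 8535.5) and smooth muscle lists (793.1 to 2028.2 against 13790 to 19346). The pericyte list overlapped (353.7 to 594.9 against 475.7 to 526.5). The part of these lists was not tested.

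The Vegfa values in urothelial-high spots separated the ages, and the difference was tested with an interaction term added after the data were seen. At 14 months they were 104.6 CPM against 41.6 in the other spots of the first section and 60.2 against 34.0 in the second. At 22 months they were 42.2 against 44.4 and 39.7 against 42.5. The enrichment in urothelial-high spots was thus seen in both 14-month sections and in neither 22-month section, and the interaction was -1.06 ± 0.15 (SE, adjusted p = 0.00084, edgeR), which held with RLE scaling, without the filter and with DESeq2. Kdr (0.88 ± 0.26, adjusted p = 0.039) and Flt4 (1.45 ± 0.37, adjusted p = 0.020) differed in the opposite direction, DESeq2 giving neither an adjusted p, and 9.34% of all genes were called. The summed dissociation-response list separated the same sections, at 4219 and 2086 CPM over the whole 14-month and 910.2 and 641.1 over the 22-month sections. In urothelial-high spots it was at 4008 and 2926 CPM at 14 months and 912.1 and 685.1 at 22 months, and in the other spots at 4393 and 1360, then 908.8 and 616.4. Over whole sections none of its 17 tested genes was called, with a median log2 difference of -1.98 (22 minus 14 months) against 0.00 for all genes. Its part in the Vegfa differences between ages, here and in the next paragraph, was not tested. With 2 sections per age, age cannot be told apart from other differences between the slides.

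The same test for fibroblast-high spots called Vegfa (0.66 ± 0.15, SE, adjusted p = 0.0058) and no other of the 10, against 3.46% of all genes, and was lost with DESeq2 (adjusted p = 0.13). Vegfa there was 48.8 and 38.4 CPM against 73.9 and 47.5 elsewhere at 14 months, and 52.0 and 49.0 against 41.3 and 39.9 at 22 months. For blood endothelial-high spots Vegfa was also the 1 gene called (0.51 ± 0.14, adjusted p = 0.043), against 0.711% of all genes, and was lost with RLE scaling (adjusted p = 0.068), while DESeq2 gave no adjusted p for it. Higher calls there were 33.7% of all calls with TMM and 20.6% with RLE. For smooth muscle-high spots none was called by edgeR or DESeq2, with Vegfa (1.07 ± 0.25, adjusted p = 0.10) and Kdr (-0.93 ± 0.30, adjusted p = 0.28) at an unadjusted p under 0.05, against 0.159% of all genes called, 1192 genes at unadjusted p under 0.05 and 4 genes by DESeq2. Without the filter on low counts edgeR did call Vegfa there (1.09, adjusted p = 0.00054). Each of these splits uses the same spots, so they are not independent of each other.

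**Figure D4:**
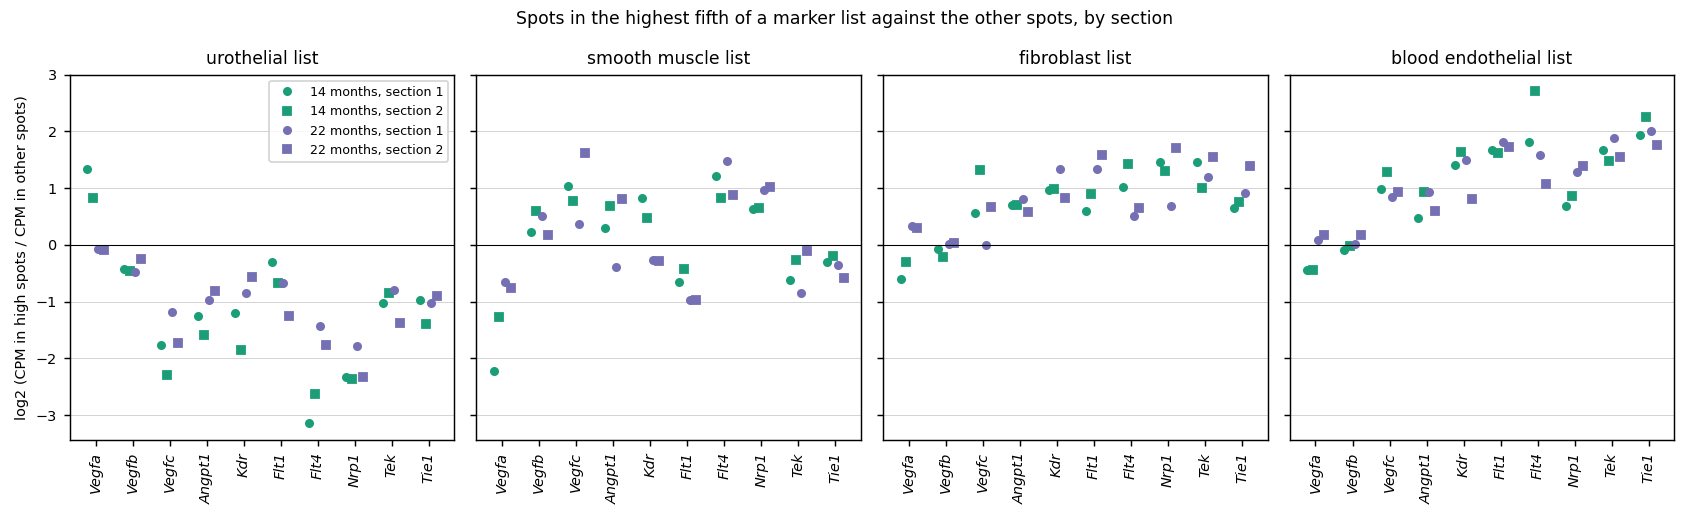
Log2 ratio of each gene's level in spots high in a marker list to the other spots of the same section, with green for 14-month and purple for 22-month sections. Vegfa in the urothelial panel is at 1.33 and 0.82 in the 14-month sections and at -0.07 and -0.10 in the 22-month sections.

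Whole sections of 22 and 14 months were compared last. None of the 10 was called by edgeR or DESeq2 (0% of 14995 genes by edgeR, with 2488 genes at unadjusted p under 0.05 and 426 genes by DESeq2). Nrp1 was the 1 gene at an unadjusted p under 0.05, at 2.22 and 2.65 CPM in the 22-month and 3.55 and 5.74 in the 14-month sections (-0.87 ± 0.30, SE, adjusted p = 0.25). Vegfa was at 43.4 and 41.5 CPM against 70.1 and 46.1 (-0.39 ± 0.23, adjusted p = 0.44). A Vegfa UMI was present in 45.6% and 48.0% of spots at 22 months and in 46.7% and 41.6% at 14 months. Vegfb was detected in 85.5%, 72.8%, 86.0% and 82.4% of spots and Nrp1 in 5.16%, 5.11%, 7.47% and 10.7% in that order of sections.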

How the data were processed

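The deposited files hold raw counts: reads per gene for the bulk samples and UMI counts per gene and barcode for the cell, nuclei and Visium libraries. Per the submitters' processing notes the authors used bcl2fastq, Cell Ranger, Space Ranger, Subread, featureCounts and build mm10, with settings and versions not given in the sources used here.

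Cells below 500 UMIs or above 20% mitochondrial UMIs were dropped, simulated doublets were used to remove likely doublets at 0.8% per 1000 cells, and cells were clustered with scanpy 1.11.5 (2000 variable genes, 30 components, 15 neighbours, resolution 1, Leiden) and named by marker lists, with at least 3 markers for a name. Python 3.11.15, numpy 2.4.6, pandas 2.3.3, scipy 1.17.1 and matplotlib 3.10.9 were used. Counts were summed per library and class of at least 20 cells, or per section and spot set (spots of at least 500 UMIs), and tested in R 4.3.3 with edgeR 4.0.16 (filterByExpr, TMM, robust quasi-likelihood, Benjamini-Hochberg threshold 0.05), after tests on simulated data. DESeq2 1.42.0, RLE and library-size scaling, no low-count filter, other cell, doublet, clustering and spot cuts and leaving out each library were alternatives. All 10 genes are given in the levels by class and in the bulk comparison, whatever their value. In several other comparisons the text prints values for only some of the 10. Named pathway genes are from the up to 4 called genes of a list with the largest change. The 3 genes most like each gene are those with the highest correlation. The genes and lists were chosen with earlier results of these data known. Interaction terms and library-size scaling of the droplet data were added after the data were seen. Intervals cover counting error only.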

Additional observations from a re-analysis of the deposited data

Results flagged for a closer look

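Each result here is a difference between 2 groups of samples in the same contrast, tested with an interaction term in edgeR that was added after the data were seen. The urothelial-to-fibroblast difference of Nrp1 was less negative in male than in mixed-sex whole-bladder libraries, by 1.675 on the log2 scale (SE 0.34, adjusted p = 0.0095). Urothelial-like Nrp1 was low throughout, at 4.21 and 2.20 CPM in the male and 0.483, 0.658 and 0.780 in the mixed-sex libraries. Depth, gene list, barcode length and the share of fibroblast-like cells also separate these libraries and cannot be told apart from sex.

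The difference of Vegfa between urothelial-high and other spots was lower at 22 than at 14 months by -1.064 (SE 0.15, adjusted p = 0.00084). In the same spots Kdr differed by 0.88 (SE 0.26, adjusted p = 0.039) and Flt4 by 1.448 (SE 0.37, adjusted p = 0.020), the 22-month sections having the less negative differences. DESeq2 gave no adjusted p for Kdr or Flt4. Vegfa differed by 0.6595 (SE 0.15, adjusted p = 0.0058) for fibroblast-high spots and by 0.5124 (SE 0.14, adjusted p = 0.043) for blood endothelial-high spots, in both cases lower than elsewhere in the 14-month and higher in the 22-month sections. The fibroblast call was lost with DESeq2 (adjusted p = 0.13) and the blood endothelial call in edgeR with RLE scaling (adjusted p = 0.068). All these splits use the same spots, so they are not independent results. There were 2 sections per age, and the summed dissociation-response list also separated them, at 4219 and 2086 CPM at 14 and 910.2 and 641.1 CPM at 22 months. Its part in these differences was not tested.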

How the results depend on the processing

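Of 2027 log2 differences of single genes across alternatives, 1945 kept their side of the threshold with no called value changing sign, 39 lost and 41 gained a call, and 2 reversed: Flt1 in macrophage or monocyte-like cells was 0.0935 in whole-bladder libraries alone and ran from -2.651 to 0.0506 when libraries were left out in turn, with 0.0506 without the detrusor-only library. All 10 bulk calls held in all 11 alternatives. Among smooth muscle-like cells 2 to 4 genes were called with a library left out, the lowest count being without detrusor-only.

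Nuclei counts come from fits of 1 nuclei library and are listed as fitted, not read as differences. For urothelial-like nuclei the 1 gene past the threshold became 2 with RLE, without the filter, with DESeq2 and at resolution 2, 0 at 1000 UMIs, 3 against 12-month cells, and 4 against mixed-sex cells or with library size alone, and 0 to 2 with a library left out (0 without the first 12-month library). For fibroblast-like nuclei 1 became 0 with DESeq2 and against 12-month cells, and 0 to 1 with a library left out. For blood endothelial-like nuclei 0 became 1 without the filter and against mixed-sex cells. The spot interactions went from 3 to 1 with DESeq2 (urothelial), 0 to 1 without the filter (smooth muscle, Vegfa), 1 to 0 with DESeq2 (fibroblast), and 1 to 0 with RLE and DESeq2 (blood endothelial). DESeq2 gave no adjusted p for Kdr and Flt4 in the urothelial and Vegfa in the blood endothelial interaction, and these are counted neither as called nor among the lost calls. The cause of these shifts was not tested.

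Counts over all genes moved more than 1.5 times in the following. Blood endothelial-like cells had 5486 calls and 3159 in whole-bladder libraries alone, and smooth muscle-like cells 3848 and 2431 or 2443 without the detrusor-only or detrusor-enriched library. Nuclei counts were 4684 and 7549 (mixed-sex) in urothelial-like, 2901, 4608 (mixed-sex) and 1910 (without the first 12-month library) in fibroblast-like, and 305, 981 (no filter), 199 (DESeq2), 196 (resolution 2), 143 (1000 UMIs) and 1392 (mixed-sex) in blood endothelial-like classes. Age calls were 0 and 144 (no filter) or 3 (DESeq2) in urothelial-like, 0 and 15 (no filter) in fibroblast-like and 4 and 23 (resolution 2) or 0 (DESeq2, or without the sex term) in blood endothelial-like cells, and for sections 0, 287 (no filter) and 426 (DESeq2). With a library left out these counts ran from 19 to 341 for blood endothelial-like nuclei, 1 to 42 and 0 to 97 for age in urothelial-like and fibroblast-like cells, and 0 to 300 for sections. Fibroblast-high spots had 5278 and 3475 without the second 14-month section. The interactions had 1364 and 416 (DESeq2), 23, 227 (no filter) and 4 (DESeq2), 508 and 127, and 104 and 27 (both DESeq2).

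No label says that bulk replicate numbers pair the samples. Deviations of same-numbered samples from their group means correlated at 0.20, 0.34 and -0.07. Intact samples 1 and 3 correlated best with another number and intact sample 2 with its own. With 3 samples per group these correlations cannot decide whether the numbers pair the samples. With the replicate block 10119 genes and all 10 genes of interest were called, with Vegfa at 1.33 (adjusted p = 0.00012), and the block changed no call among those 10. Blood endothelial-like nuclei against 12-month cells alone and age in that class with a library left out left no residual degrees of freedom. Smooth muscle-like cells at 50 cells, with doublets kept or in whole-bladder libraries alone, and lymphatic and pericyte-like cells in whole-bladder libraries alone, were not run, since those settings took classes held by at least 3 libraries. Blood endothelial-like cells held no Vegfa UMI in 4 whole-bladder libraries, at medians of 1375 and 1074 (male) and 6198 and 4960 (mixed-sex) UMIs per cell, and the part of depth was not tested.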
